A study of Homo sapiens with 8 samples.

Results

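Polycomb repressive complex 1 (PRC1) is a set of protein assemblies that keep developmental genes silent, and the report describes 9 of its subunit genes: the chromobox genes CBX2, CBX6, CBX7 and CBX8, the RING finger genes RING1, RNF2, BMI1 and PCGF2, and the polyhomeotic gene PHC1. The members were taken by gene symbol as a list, and they are 9 of the 57500 genes counted. All 9 passed the filter on low counts that left 19171 genes for testing. RNAseq was performed on HEK293T cells, a human embryonic kidney line with the large T antigen of SV40. The 4 DZNep libraries came from cells given 100 µM DZNep (3-deazaneplanocin A) for 48 h, and the 4 Control libraries from cells given vehicle for 48 h. DZNep inhibits S-adenosylhomocysteine hydrolase, and the by-product that then accumulates inhibits methyltransferases. No group carried a gene deletion or any other agent, and all libraries came from a single cell line, which limits them as a model of other tissues. The labels name DMEM as the medium and the methods name RPMI, and the study calls its replicates biological without saying how the cultures were kept apart. The p-values of the main test set the difference between the groups against the spread between these cultures within a group. In the fit with a block for the replicate number, given below, the spread is what is left after that number is taken out.

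In canonical PRC1, a catalytic RING protein (RING1 or RNF2) pairs with a PCGF protein (PCGF2 or BMI1) to form an E3 ligase that attaches ubiquitin to a lysine near the end of histone H2A. A CBX subunit reads histone H3 trimethylated at lysine 27, the mark placed by PRC2, and a polyhomeotic subunit (PHC1 and its relatives) polymerises through its SAM domain and clusters the bound chromatin. The CBX paralogs compete for the same place in the complex, and so do the paired RING and PCGF paralogs, so the make-up of the complex can differ between cells. CBX7 is known as the main chromobox of embryonic stem cells, and CBX2 and CBX8 of more differentiated cells. CBX7, CBX8 and BMI1 are known repressors of the INK4 locus, which encodes cell cycle inhibitors.

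Library totals lay between 25043058 and 44902779 counts, with Control replicate 1 the shallowest. All 7 HEK293T markers passed the filter, with a summed level of 790 to 1199 CPM (counts scaled to a common library total) in Control and 1026 to 1213 CPM with DZNep. Over all libraries VIM alone was at 502 to 816 CPM, while PAX2 was at 5.72 to 9.98 CPM and KRT8 at 5.87 to 60.0 CPM. The summed levels of the lymphocyte, endothelial and hepatocyte markers did not exceed 8.05 CPM in any library, and CD3E, CDH5, ALB, APOA1 and TTR were at 0 in at least 1 library. The fibroblast markers, which include collagen genes, summed to 90.8 to 160 CPM in Control and 90.0 to 183 CPM with DZNep. Replicates 1 and 4 stood apart from replicates 2 and 3 in the share of counts on mitochondrial genes, with 7.76 and 13.7% against 3.02 and 3.16% in Control, and 7.04 and 10.1% against 4.25 and 4.44% with DZNep.

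The promoters of the CBX member that rose to the highest level, of the CBX member that fell and of the PCGF member that rose are printed here, since these genes carry the changes described below. The sequences are from RefSeq on GRCh38.p14, from 250 bases before to 50 bases after the annotated start, 5′ to 3′ on the gene's strand, and 7 of the 9 members matched, with 9 windows. CBX2 and CBX8 were not matched. Capitals mark CACGTG, the E-box bound by MYC and related factors.
CBX6, chr22:38872167-38872466, minus strand: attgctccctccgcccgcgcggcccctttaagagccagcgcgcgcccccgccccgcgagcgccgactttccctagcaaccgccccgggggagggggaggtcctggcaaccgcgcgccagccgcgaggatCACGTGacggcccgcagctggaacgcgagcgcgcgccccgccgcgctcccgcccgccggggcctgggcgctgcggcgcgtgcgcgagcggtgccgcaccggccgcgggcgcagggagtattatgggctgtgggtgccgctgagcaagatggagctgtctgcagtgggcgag
CBX7, chr22:39152631-39152930, minus strand: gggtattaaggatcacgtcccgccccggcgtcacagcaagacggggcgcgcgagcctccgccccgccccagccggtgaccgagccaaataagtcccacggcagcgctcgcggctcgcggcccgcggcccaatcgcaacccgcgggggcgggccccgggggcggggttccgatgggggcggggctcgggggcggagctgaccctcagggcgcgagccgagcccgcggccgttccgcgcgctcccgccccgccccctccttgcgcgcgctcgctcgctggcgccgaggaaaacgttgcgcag
BMI1, chr10:22320849-22321148, plus strand: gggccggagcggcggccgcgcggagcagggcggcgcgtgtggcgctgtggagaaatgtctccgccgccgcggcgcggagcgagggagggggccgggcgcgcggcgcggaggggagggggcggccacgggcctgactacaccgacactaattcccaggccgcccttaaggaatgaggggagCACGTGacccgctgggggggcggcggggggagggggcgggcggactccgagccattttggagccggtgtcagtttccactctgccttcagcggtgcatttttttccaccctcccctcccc
BMI1 and PHC1 have a second start and window each, and the BMI1 window shown is the upstream one. The 3 windows shown hold 47, 50 and 36 CpG dinucleotides, against a median of 14 over all 35116 promoter windows of the same length. Their G+C content is 76.7% for CBX6, 77.7% for CBX7 and 73.3% for BMI1, against a median of 58.7%. Among matched members not called changed, the RING1 and RNF2 windows hold 41 CpG dinucleotides each, that of PCGF2 2 and those of PHC1 10 and 28. CACGTG was found 121 bases upstream of the CBX6 start and 70 bases upstream of the BMI1 start, and 7.26% of all promoters hold it. It was not found in the other 7 member windows, those of CBX7, RING1, RNF2, PCGF2, both of PHC1 and the second of BMI1. The second BMI1 window (chr10:22321706-22322005) holds 65 CpG dinucleotides and has a G+C content of 91%. The E2F-type motif TTTNGCGC, searched on both strands like CACGTG, was found in no member window and in 1.79% of all promoters. CACGTG reads the same on both strands and was counted once per position.

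Levels below are normalized counts, the read count of a gene divided by the size factor of its library, and a gene is called changed at an adjusted p-value under 0.05 in edgeR's quasi-likelihood test (DZNep against Control, n = 4 each, adjusted over all genes tested). Of the 9 members 3 rose (CBX6, CBX8 and BMI1), 1 fell (CBX7) and 5 did not pass. Over all genes tested, 19.1% were called higher and 21.8% lower. With the further requirement of a log2 fold change beyond 1 in size, CBX8 was the member called higher, against 10.6% of all genes, and no member was called lower in edgeR or DESeq2 (also at an unadjusted p under 0.05), beside 13.5% in edgeR over all genes. The median log2 fold change of the 9 members was 0.32, beside -0.03 for all genes tested. RNA came from whole cultures, so less RNA per cell and fewer cells with the transcript cannot be told apart.

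The libraries of the groups share replicate numbers. For replicates 2, 3 and 4 the same-numbered libraries deviated together from their group means. For replicate 1 their correlation was only 0.136, below the 0.529 with a library of another number. When the fit held a block for the replicate number, 5 members rose, RING1 and RNF2 being added, and CBX7 fell, against 28.8% of all genes called higher and 30.2% called lower. With DESeq2, without a block, the members called higher were also these 5. The share of all genes that DESeq2 called higher is not given here, so this count has no background to be read against. Without a model, 5 members had no overlap between the groups and were higher with DZNep (CBX6, CBX8, RING1, RNF2 and BMI1), against 19.5% of all genes tested, and CBX7 had no overlap and was lower, against 19.4%. This holds for normalized counts. In CPM of the library total BMI1 overlapped, with 123 CPM in Control replicate 3 and 111 CPM in DZNep replicate 4, which left 5 members apart. For each of these 6 members the two-sided exact permutation test on normalized counts gave p = 0.0286, the smallest value that 4 libraries against 4 allow. Groups that do not overlap always give this p, so it adds nothing to the separation. It was not adjusted over the members. The plot of member levels by library shows this separation, and the plot of log2 fold changes shows the estimates with and without the block.

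**Figure D1:**
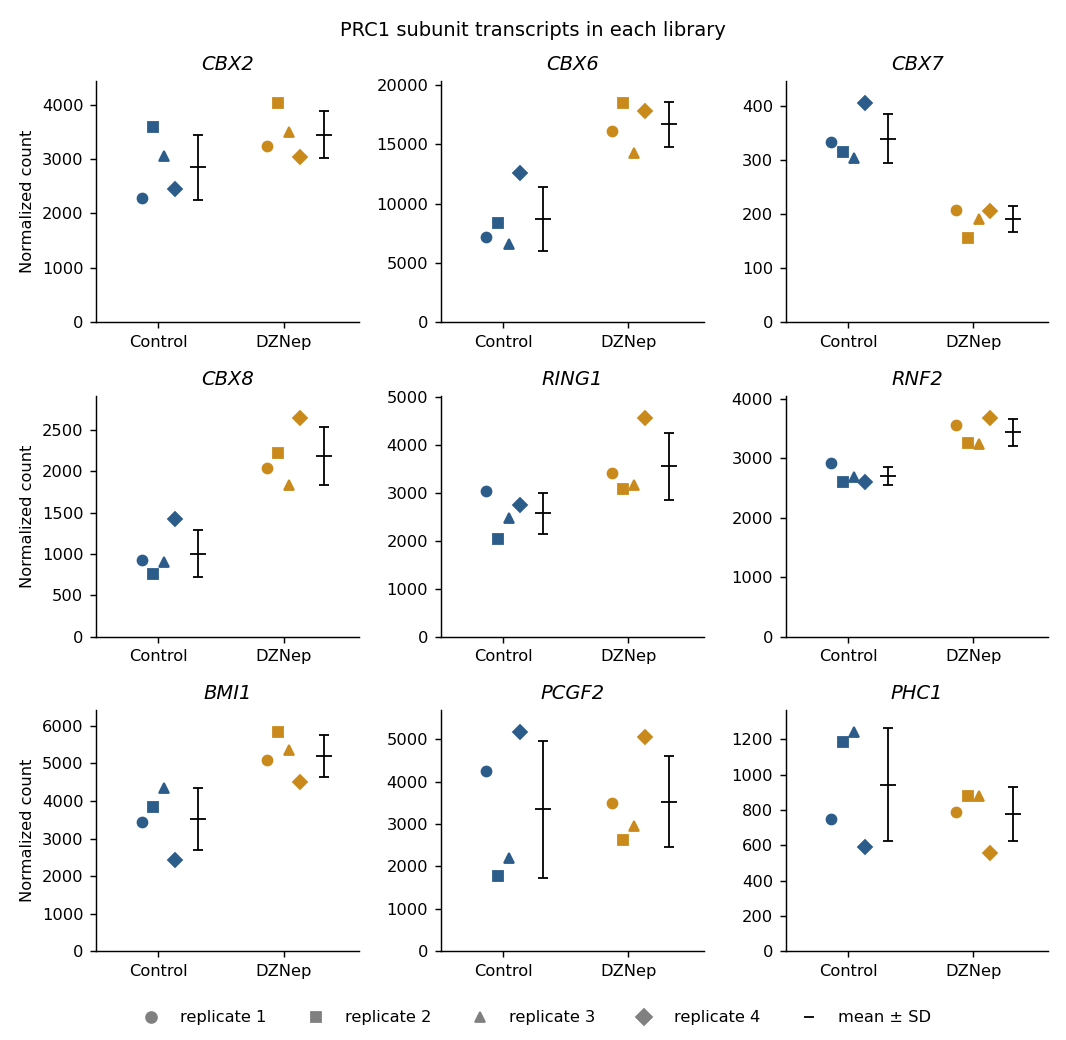
Normalized count of each of the 9 PRC1 subunit genes (y axis, starting at 0) in the 4 Control and 4 DZNep libraries, with the marker shape giving the replicate number and the bar the mean ± SD (n = 4). The DZNep points are above the Control points without overlap for CBX6, CBX8, RING1, RNF2 and BMI1 and below them for CBX7, and the groups overlap for CBX2, PCGF2 and PHC1.

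**Figure D2:**
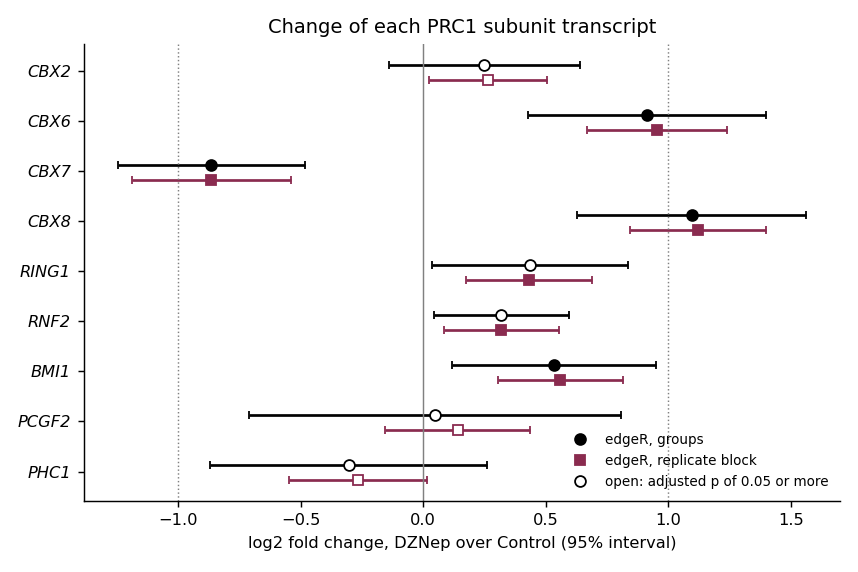
log2 fold change of each member, DZNep over Control, with its 95% confidence interval from edgeR without (circles) and with (squares) the replicate number as a block; filled symbols passed an adjusted p of 0.05 and dotted lines mark a log2 fold change of -1 and 1. CBX8 has the highest estimate (1.09) and CBX7 the lowest (-0.86), and RING1 and RNF2 are filled with the block and open without it.

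Of the 4 chromobox members, 2 rose, 1 fell and 1 did not pass. CBX8, one of the chromobox proteins of differentiated cells, had 934, 756, 910 and 1419 normalized counts in Control replicates 1 to 4 and 2040, 2228, 1836 and 2652 in DZNep replicates 1 to 4. The lowest DZNep library stood above the highest Control library, which was replicate 4. The means were 1005 ± 287 (SD, n = 4) in Control and 2189 ± 348 with DZNep, a log2 fold change of 1.09 (SE 0.21, 95% interval 0.63 to 1.56, edgeR adjusted p = 0.00228). Within replicate numbers it was 1.13, 1.56, 1.01 and 0.90. Without Control replicate 2 the log2 fold change was 0.98 and without DZNep replicate 4 it was also under 1, so the call beyond a log2 fold change of 1 was lost while the adjusted p stayed under 0.05. Without Control replicate 4, CBX6 passed beside CBX8 beyond a log2 fold change of 1.

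CBX6, a chromobox paralog outside the INK4 repressors named above, had the highest count of the members. It was measured at 7195, 8401, 6563 and 12574 normalized counts in Control replicates 1 to 4 and at 16151, 18485, 14236 and 17816 with DZNep. Control replicate 4 was the highest of its group and still lay below the lowest DZNep library. The mean went from 8683 ± 2704 to 16672 ± 1898 (SD, n = 4), with a log2 fold change of 0.91 (SE 0.22, 95% interval 0.43 to 1.40, edgeR adjusted p = 0.00738). The within-number differences were 1.17, 1.14 and 1.12 for replicates 1 to 3 and 0.50 for replicate 4.

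CBX7, the chromobox of embryonic stem cells, was the member with the fewest reads, 183 to 378 raw counts per library. Control replicates 1 to 4 held 334, 316, 304 and 406 normalized counts and DZNep replicates 1 to 4 held 208, 156, 192 and 206. The highest DZNep library, replicate 1, was still below the lowest Control library, replicate 3. The mean fell from 340 ± 45.8 to 190 ± 23.9 (SD, n = 4), a log2 fold change of -0.86 (SE 0.17, 95% interval -1.25 to -0.48, edgeR adjusted p = 0.00271). CBX7 was lower in 4 of 4 replicate numbers, by 0.66 to 1.02 on the log2 scale. In the annotation 21.6% of its exon bases are shared with the pseudogene COX5BP7 on the same strand and with a transcript on the other strand (ENSG00000279833), and the strandedness of the counting is not given in the sources used here. That transcript had a log2 fold change of 0.14 (edgeR adjusted p = 0.815).

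CBX2, the other chromobox member, which compacts nucleosomes through its own positively charged region, did not pass the test. Its levels were 2289, 3593, 3065 and 2455 normalized counts in Control and 3237, 4033, 3492 and 3041 with DZNep. The groups overlap, although the DZNep library was the higher one within 4 of 4 replicate numbers. The log2 fold change was 0.25 (SE 0.18, 95% interval -0.14 to 0.64, edgeR adjusted p = 0.287), and with the block it was 0.26 with an adjusted p of 0.058. It was 0.15 without Control replicate 1 and 0.37 without Control replicate 2.

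Per kilobase (kb) of exon, the scale on which genes can be compared, CBX6 was at 1086 ± 338 normalized counts per kb in Control and 2086 ± 237 with DZNep, and CBX7 at 45.6 ± 6.13 and 25.5 ± 3.19. The sum of the 4 chromobox members per kb was 1878 ± 381 in Control and 3250 ± 322 with DZNep (SD, n = 4).

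Within that sum CBX7 made up 2.84, 2.22, 2.51 and 2.26% in Control replicates 1 to 4 and 0.893, 0.584, 0.895 and 0.803% in DZNep replicates 1 to 4. Its share was thus lower in each DZNep library than in any Control library, with a mean of 2.46 ± 0.29% against 0.794 ± 0.15%. The share of CBX8 was 9.60 to 14.4% in Control and 15.1 to 18.7% with DZNep, and these ranges also do not overlap. The difference in means was 3.32 percentage points, and 2.20 without Control replicate 2. CBX2 went from 27.5 ± 7.29 to 18.8 ± 2.49% and CBX6 from 57.1 ± 6.22 to 64.1 ± 1.34%, both with overlapping ranges. The plot of the chromobox make-up shows the shares in each library. CBX7 was the smallest share in all 8 libraries.

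**Figure D3:**
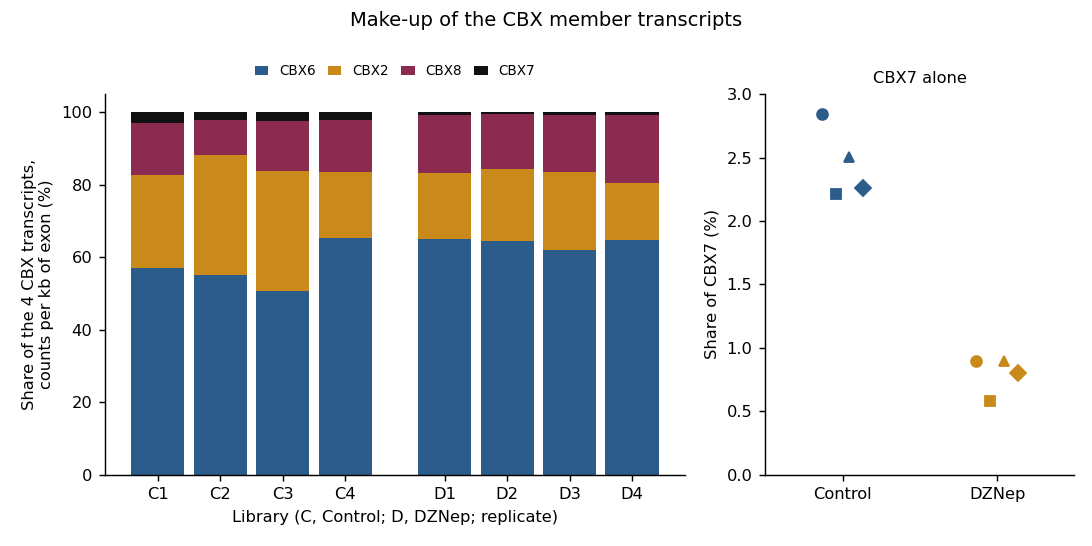
Left, stacked bars of the percentage of CBX6, CBX2, CBX8 and CBX7 in the sum of the 4 chromobox members (normalized counts per kb of exon) in each Control (C) and DZNep (D) library. Right, the CBX7 percentage alone on an axis from 0 to 3%, with the marker shape giving the replicate (circle 1, square 2, triangle 3, diamond 4), between 2.22 and 2.84% in Control and between 0.584 and 0.895% with DZNep.

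A ratio of paralogs within a library does not depend on how libraries are scaled, and 8 such ratios were compared. CBX6 was 21.5 to 30.9 times the count of CBX7 in the Control libraries and 74.1 to 118 times in the DZNep libraries. The log2 ratio of CBX7 to CBX8 was -1.53 ± 0.23 (SD, n = 4) in Control and -3.52 ± 0.29 with DZNep, a ratio 3.96-fold lower. CBX7 to CBX2 had a log2 ratio of -3.05 ± 0.44 and -4.18 ± 0.36. The groups did not overlap in these 3 ratios, each with an exact permutation p of 0.0286, and after adjustment over the 8 ratios the p was 0.0762, so none passed. All 3 contain CBX7 and are not independent of each other.

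Among the chromobox ratios without CBX7 the groups overlapped. CBX2 to CBX8 differed by -0.86 on the log2 scale (exact permutation p = 0.0857, adjusted p = 0.171), CBX6 to CBX2 by 0.69 (p = 0.114, adjusted p = 0.183, exact permutation) and CBX6 to CBX8 by -0.17 (p = 0.4, adjusted p = 0.514, exact permutation). Without Control replicate 4, the library in which CBX6, CBX7 and CBX8 were highest within Control, the 3 ratios with CBX7 together with CBX2 to CBX8 and CBX6 to CBX2 passed, each with an adjusted p of 0.0457 in the exact permutation test. The smallest exact p is 0.0286 with or without that library, and the ratios with CBX7 were already at it. Their adjusted p fell only because CBX2 to CBX8 and CBX6 to CBX2 reached it too. The CBX6 to CBX8 difference was -0.05 without Control replicate 2, -0.25 without Control replicate 3 and -0.11 without DZNep replicate 4. The plot of paralog ratios gives all 8 in each library.

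**Figure D4:**
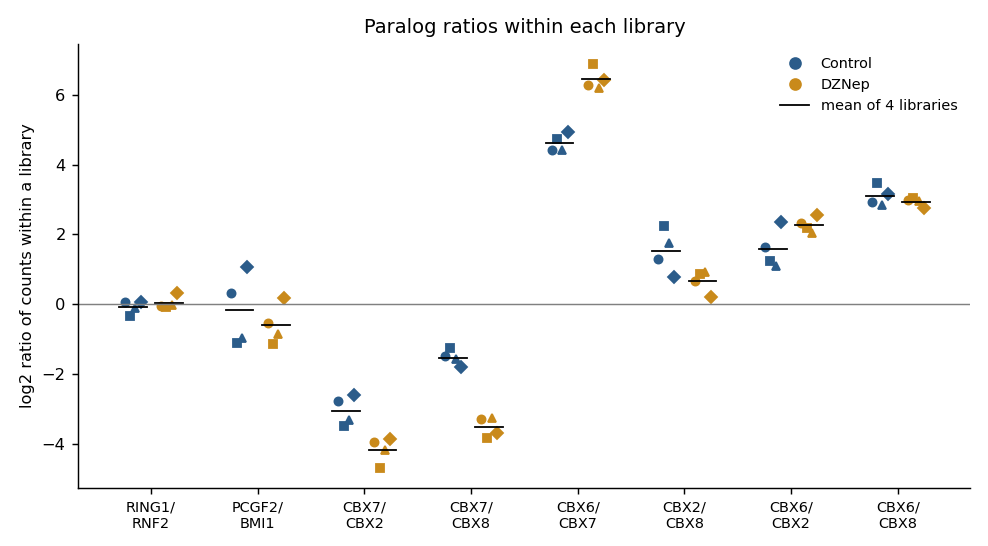
log2 ratio of the counts of 2 paralogs within a library (y axis) for 8 ratios, in 4 Control (blue) and 4 DZNep (orange) libraries, with the marker shape giving the replicate (circle 1, square 2, triangle 3, diamond 4) and the line the mean. The groups are apart for CBX7/CBX2, CBX7/CBX8 and CBX6/CBX7 and overlap for the other 5 ratios.

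The chromobox members lie in clusters on GRCh38. CBX2 (chr17:79778148-79787983, plus strand) and CBX8 (chr17:79792132-79801683, minus strand) are separated by 4148 bases. CBX2 had a log2 fold change of 0.25 and CBX8 of 1.09, and LINC01977, a lncRNA within 100 kb of both that was named after its value was seen, fell by 1.59 (edgeR adjusted p = 0.00819). CBX6 (chr22:38861422-38872249, minus strand) and CBX7 (chr22:39120167-39152680, minus strand) are 247.9 kb apart on the same strand, and one rose while the other fell.

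The catalytic RING subunits were near the threshold. RING1 (chr6:33208500-33212722, plus strand) was measured at 3048, 2042, 2483 and 2746 normalized counts in Control and 3411, 3072, 3157 and 4573 with DZNep. The lowest DZNep library, replicate 2, lay just above the highest Control library, replicate 1. The log2 fold change was 0.43 (SE 0.18, 95% interval 0.03 to 0.83, edgeR adjusted p = 0.0789), and with the replicate block RING1 passed with the same log2 fold change of 0.43 (edgeR adjusted p = 0.00637). RNF2 (chr1:185045526-185102603, plus strand), the RING paralog with the greater part of the ligase activity in most cells, had 2918, 2601, 2695 and 2612 normalized counts in Control and 3566, 3266, 3239 and 3689 with DZNep. It varied little among the cultures, with SDs of 147 and 223 on means of 2707 and 3440. Its log2 fold change was 0.32 (SE 0.12, 95% interval 0.04 to 0.59, edgeR adjusted p = 0.063), and with the replicate block it passed (log2 fold change 0.32, edgeR adjusted p = 0.0211).

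The balance of the RING paralogs was not resolved as different. The log2 ratio of RING1 to RNF2 was -0.08 ± 0.20 in Control and 0.03 ± 0.19 with DZNep (difference 0.11, exact permutation p = 0.486, adjusted p = 0.514). The difference was 0.02 without DZNep replicate 4 and also 0.02 without Control replicate 2. Per kb of exon RING1 was the more abundant without overlap, at 1423 ± 235 normalized counts per kb against 693 ± 37.7 for RNF2 in Control and at 1960 ± 383 against 881 ± 57.0 with DZNep.

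Of the PCGF members, BMI1 (PCGF4; chr10:22321099-22331484, plus strand), a proto-oncogene of stem cell renewal, rose. The Control libraries held 3430, 3849, 4357 and 2442 normalized counts and the DZNep libraries 5083, 5830, 5358 and 4497. Replicate 4 was the lowest library of both groups, and the lowest DZNep library was just above the highest Control library. The mean went from 3519 ± 812 to 5192 ± 557 (SD, n = 4), a log2 fold change of 0.53 (SE 0.19, 95% interval 0.12 to 0.95, edgeR adjusted p = 0.0430). The adjusted p rose above 0.05 without Control replicate 1 (0.0996) or replicate 4 (0.0778), without DZNep replicates 1 (0.0846), 2 (0.109) or 3 (0.0957), with library sizes alone (0.0729) and without the filter on low counts (0.0819), and with the block it was 0.000957. The annotation shares 22.8% of the BMI1 exon bases with the readthrough gene COMMD3-BMI1, which had 0 to 10 counts per library.

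PCGF2 (MEL18; chr17:38733898-38749817, minus strand), the paralog that can take the place of BMI1, differed more among the cultures of a group than between the groups. Its levels were 4241, 1779, 2203 and 5164 normalized counts in Control and 3483, 2627, 2960 and 5049 with DZNep. Replicates 1 and 4 were above replicates 2 and 3 in both groups, as they were in the mitochondrial share, whose part in this was not tested. The log2 fold change was 0.05 (SE 0.34, 95% interval -0.71 to 0.81, edgeR adjusted p = 0.925), and within replicates 1 to 4 it was -0.28, 0.56, 0.43 and -0.03. Its sign changed when Control replicate 2 (-0.16), Control replicate 3 (-0.11) or DZNep replicate 4 (-0.17) was left out. PCGF2 shares 61.5% of its exon bases with CISD3 and ENSG00000277182 on the other strand, and CISD3, an iron-sulfur protein gene of mitochondria, fell by 0.69 (edgeR adjusted p = 0.00736), so the PCGF2 count is uncertain. The log2 ratio of PCGF2 to BMI1 differed by -0.42 (exact permutation p = 0.514, adjusted p = 0.514).

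PHC1 (chr12:8913896-8941467, plus strand) did not pass the test. It had 751, 1183, 1240 and 593 normalized counts in Control and 787, 880, 881 and 558 with DZNep. The groups overlap, and here replicates 1 and 4 were below replicates 2 and 3 in both groups. The log2 fold change was -0.30 (SE 0.25, 95% interval -0.87 to 0.26, edgeR adjusted p = 0.368), and it was -0.27 with the block (edgeR adjusted p = 0.0941). It was -0.18 without Control replicate 2, -0.15 without Control replicate 3, -0.17 without DZNep replicate 4 and -0.48 without Control replicate 4. In the annotation 18.1% of its exon bases overlap M6PR on the other strand, and the pseudogene PHC1P1 held 11 to 101 counts per library.

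The order of the members on the per-kb scale was RING1, CBX6, PCGF2, BMI1, RNF2, CBX2, CBX8, PHC1 and CBX7 in Control. With DZNep it was CBX6, RING1, BMI1, PCGF2, RNF2, CBX2, CBX8, PHC1 and CBX7. In Control, neighbours in this order whose libraries did not overlap were RNF2 and CBX2, CBX2 and CBX8, and PHC1 and CBX7, and the other neighbours did not differ beyond their spread. With DZNep they were RING1 and BMI1, RNF2 and CBX2, CBX8 and PHC1, and PHC1 and CBX7. With DZNep CBX8 reached 531 ± 84.2 normalized counts per kb, from 244 ± 69.6 in Control, and overlapped CBX2 at 609 ± 75.8. CBX8 then no longer overlapped PHC1, which was at 127 ± 24.8 with DZNep and 154 ± 52.0 in Control.

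The other genes of the polycomb system were counted from lists written from general knowledge, and chosen with earlier results of these data known. Over the 6 lists other than the members, 9 of 61 genes rose and 10 fell, beside 19.1% and 21.8% of all genes tested. With the replicate block 18 rose and 14 fell, beside 28.8% and 30.2% of all genes. Without Control replicate 1, or without DZNep replicate 1, 2 or 3, 5 genes rose, and without DZNep replicate 1 6 genes fell. Of 5 other canonical PRC1 subunits the adaptors PHC2 and SCMH1 fell and 3 did not pass, with a median log2 fold change of -0.28. SCML2, a relative of SCMH1, was among the 3 (log2 fold change 0.77, edgeR adjusted p = 0.0731) and passed with the replicate block (edgeR adjusted p = 7.16e-05). PHC2, a paralog of PHC1, fell from 1732 ± 186 to 801 ± 127 normalized counts (log2 fold change -1.14, edgeR adjusted p = 0.000364). SCMH1, a sex comb on midleg protein that binds the polyhomeotic subunit, fell from 2379 ± 461 to 992 ± 147 (log2 fold change -1.29, edgeR adjusted p = 0.000395). PHC3, the remaining polyhomeotic gene, had a log2 fold change of 0.08 (edgeR adjusted p = 0.795).

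Variant PRC1 replaces the CBX and PHC subunits with RYBP or YAF2 and holds any of the PCGF proteins. Of its 24 listed genes 4 rose and 6 fell, 6 and 7 with the replicate block, and the median log2 fold change was 0.07. Over all genes tested 19.1% rose and 21.8% fell, and 28.8% and 30.2% with the block. The same shares belong beside the counts of the lists that follow. RYBP, which stimulates the ligase and occupies the site that a CBX subunit takes in canonical PRC1, went from 1245 ± 405 to 3103 ± 703 normalized counts (log2 fold change 1.29, edgeR adjusted p = 0.00313). SKP1 (0.61, edgeR adjusted p = 0.0494) and KDM2B (0.52, edgeR adjusted p = 0.0409) were also called higher. They are partners in the PCGF1 assembly that binds CpG islands. In that assembly PCGF1 (0.03) and USP7 (0.16) did not pass, and BCOR (0.48) and BCORL1 (0.51) passed only with the replicate block. Of those that fell, TFDP1, a partner of E2F factors, went from 2863 ± 464 to 1438 ± 179 (log2 fold change -1.02, edgeR adjusted p = 0.000691). FBRSL1 (-0.66) and PCGF3 (-0.59), parts of the PCGF3 and PCGF5 assemblies, also fell. These assemblies did not move as a whole. In them AUTS2 fell (-0.41, edgeR adjusted p = 0.0495), FBRS rose (0.38, edgeR adjusted p = 0.0403) and PCGF5 did not pass (-0.02).

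Of 10 genes of H2A deubiquitination, the reaction that removes the PRC1 mark, 2 rose and 1 fell, 5 and 1 with the block, with a median of 0.32. MBD6 and ASXL3, cofactors of the BAP1 deubiquitinase, had log2 fold changes of 0.92 (edgeR adjusted p = 0.000384) and 0.76 (edgeR adjusted p = 0.0104), and FOXK1, a DNA-binding partner, -0.59 (edgeR adjusted p = 0.00708). Of 14 PRC2 genes 2 rose and 1 fell, 5 and 3 with the block, with a median of -0.14. JARID2 (0.74) and LCOR (0.99), whose locus encodes the PRC2 partner PALI1, rose and the accessory subunit EPOP (-0.77) fell, while the catalytic subunit EZH2 had a log2 fold change of -0.15 (edgeR adjusted p = 0.570).

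Of the 6 HP1 and CDY chromodomain genes, whose proteins read methylated lysine outside PRC1, CBX1 rose by a log2 fold change of 0.60 (edgeR adjusted p = 0.0265) and none fell, and with the block 1 fell. The INK4 genes, targets of PRC1, did not pass the test. CDKN2A had 7956 to 19149 normalized counts in Control and 8169 to 16978 with DZNep (log2 fold change -0.15, edgeR adjusted p = 0.744). CDKN2B had a log2 fold change of 0.14 (edgeR adjusted p = 0.449). The plot of changes by polycomb list shows members and lists on the same axis.

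**Figure D5:**
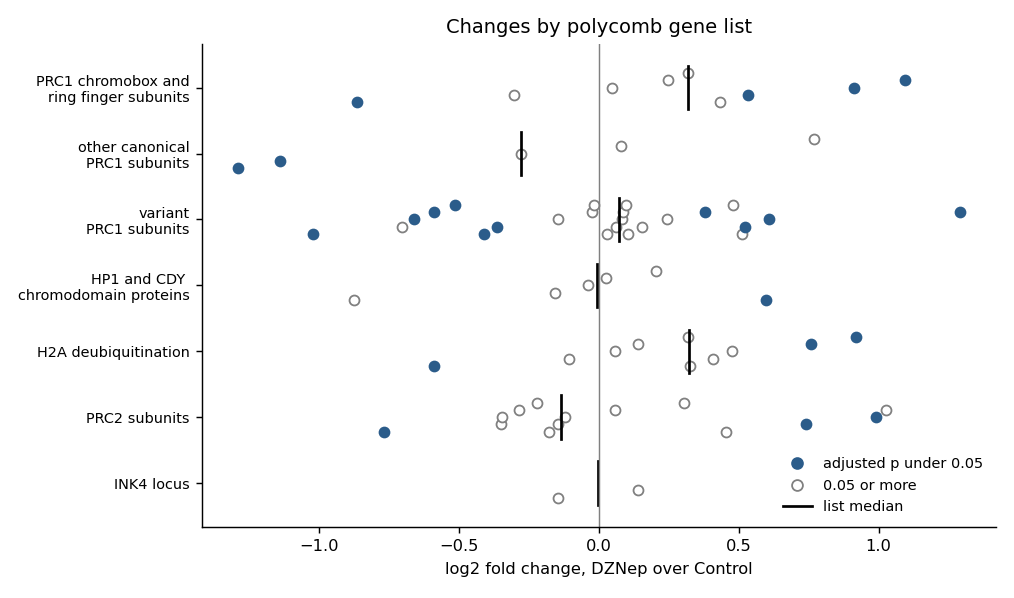
log2 fold change, DZNep over Control, of each gene tested in the list of members and in 6 other lists, with filled points for an edgeR adjusted p under 0.05 and a black line at the list's median. The medians lie between -0.28 for the other canonical PRC1 subunits and 0.32 for the members and the genes of H2A deubiquitination, and 6 of the 7 lists hold genes called changed.

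Around the members, 50 genes within 100 kb were tested, with CBX2 and CBX8 counted as neighbours of each other. Of these 11 rose, 13 fell and 26 did not pass, beside the 19.1% and 21.8% of all genes given above. The 8 neighbours with the largest log2 fold changes in size beyond 1 were spread over 5 members. NPTXR, a neuronal pentraxin receptor gene downstream of CBX6 in the same orientation, had 405 normalized counts in Control and 38.1 with DZNep (log2 fold change -3.44, edgeR adjusted p = 6.81e-06), next to a gene that rose. Beside RING1, COL11A2 (3.37) and RNY4P10 (2.87) rose, and beside BMI1 the lncRNAs ENSG00000272516 (2.80) and ENSG00000272366 (2.68) rose. Beside PCGF2 the lncRNA ENSG00000275532 fell by 2.23, and beside PHC1 A2ML1 rose by 1.93 and KLRG1 fell by 1.73. RNY4P10, A2ML1 and both lncRNAs at BMI1 had Control means under 10 normalized counts.

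The genes whose levels over the 8 libraries were most like those of the member with the highest and the member with the lowest fold change were looked up among 13556 candidates. For CBX8 they were PSPN (Pearson r = 0.992), MAP1S (0.990) and DDX41 (0.990), and for CBX7 LIMK1 (0.993), ATG10 (0.993) and CMIP (0.992). The 8 points of each correlation fall into the 2 treatment groups and share library and depth, so these values describe the libraries and carry no test.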

How the data were processed

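The libraries, grouped by their treatment label, were sequenced as paired 150 bp reads. Trimming was done with Trimmomatic 0.36 and alignment to GRCh38 with STAR 2.5.2b, and the authors deposited unique exonic read counts per gene made with featureCounts (Subread 1.5.2). The authors also deposited a signal table of normalized counts for 19118 genes, those with more than 80 counts in sum, and a check showed that dividing the counts of a library by its own size factor gives these values. The annotation release, library type and strandedness are not given in the sources used here, so overlapping genes are uncertain.

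Gene symbols and coordinates came from GENCODE 44 (56410 of 57500 identifiers matched). The main test was edgeR 4.0.16 (R 4.3.3) with TMM normalization, filterByExpr and a quasi-likelihood test on group, adjusted by Benjamini-Hochberg over 19171 genes. Library totals were 25043058 to 44902779 counts, and CBX7, the member with the fewest reads, had 183 to 378 counts. The chi-square per degree of freedom between libraries of a group was 27.1 or more, above sampling noise, and each library was kept as a replicate of its own.

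Levels per kb used all annotated exon bases of a gene. Paralog ratios were tested as log2 ratios of counts with 0.5 added, by two-sided exact permutation over libraries. The deviation of a library from its group mean was correlated with that of the same-numbered library of the other group (0.136, 0.492, 0.429 and 0.673 for replicates 1 to 4). Each value was above 0.1, and the replicate numbers were treated as pairs in the block fit and in the differences within replicate numbers. The main test did not use them. The labels give the number without its meaning, and the pairing comes from the data. For replicate 1 a library of another number correlated more highly (0.529).

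Alternatives were other normalizations, other filters on low counts, DESeq2 1.42.0, the replicate block, other gene lengths, another added count and leaving out each library. The members and lists were chosen with earlier results of these data known. Named are all members, up to 3 called genes in each direction per list, EZH2, the INK4 genes, up to 8 neighbours beyond both thresholds and the 3 genes most alike. LINC01977, PHC3, SCML2, PCGF1, PCGF5, USP7, BCOR, BCORL1, AUTS2, FBRS and the genes that overlap a member were named after their values were seen. Another gene of the lists is not reported here, and lists, shares and neighbours were computed without it.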

Additional observations from a re-analysis of the deposited data

Results flagged for a closer look

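The log2 ratio of RING1 to RNF2 in DZNep replicate 4 was 0.31, apart from the other 3 DZNep libraries at -0.09 to -0.04. The gap was 0.871 of the whole range of the group, above Dixon's 95% critical value for 4 libraries. In this library RING1 had 4573 normalized counts, the highest of all libraries, and RNF2 3689, also the highest. By the same rule the CBX6 share of the 4 chromobox members was low in DZNep replicate 3, at 62.1% beside 64.5 to 64.9% in the other DZNep libraries. The CBX8 share was low in Control replicate 2, at 9.60% beside 13.6 to 14.4% in the other Control libraries. These were 3 of 42 groups of values tested, and chance flags about 1 in 20 such groups.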

How the results depend on the processing

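CBX6, CBX7 and CBX8 kept their direction and an adjusted p under 0.05 under every alternative run. The number of members called higher was 3, and 4 with median-ratio size factors, library sizes alone or at least 10 reads in every library. It was 2 without a filter on low counts, 5 with DESeq2 and with the replicate block, and 2 to 3 when a library was left out. Beyond a log2 fold change of 1 it was 1, 2 with library sizes alone, and 0 to 2 when a library was left out, 0 without Control replicate 2 or DZNep replicate 4. Of the 6 other lists 9 genes rose, 5 without a filter on low counts and 18 with the replicate block, and 5 to 12 when a library was left out. Of the same lists 10 genes fell, 14 with the replicate block and 6 to 11 when a library was left out, 6 without DZNep replicate 1. RING1 passed with library sizes alone (adjusted p = 0.0338), DESeq2 (0.0492) and the block (0.00637), and RNF2 also with median-ratio size factors (0.0494), library sizes alone (0.0498), at least 10 reads in every library (0.0414), DESeq2 (0.0102) and the block (0.0211). The replicate block changed no other call among the members. When a library was left out, the PCGF2 log2 fold change lay between -0.17 and 0.33, with -0.16, -0.11 and -0.17 as the reversed values, and the PCGF2 to BMI1 ratio between -0.73 and 0.0008. The ranges of the log2 ratio differences were -1.28 to -0.96 for CBX7 to CBX2, -2.08 to -1.88 for CBX7 to CBX8, 1.67 to 1.92 for CBX6 to CBX7, -1.10 to -0.62 for CBX2 to CBX8 and 0.53 to 0.95 for CBX6 to CBX2, and these 5 passed without Control replicate 4. Without it they were -0.97, -2.08, 1.92, -1.10 and 0.95, and the adjusted p fell because more ratios reached the smallest exact p. RING1 to RNF2 ranged from 0.02 to 0.16 and CBX6 to CBX8 from -0.25 to -0.05. A paired sign-flip test of the ratios cannot go under 0.125 and says nothing of their stability. The difference in the CBX7 share was -2.36 percentage points with the longest transcript and -2.10 with exon bases that no other gene shares, an alternative chosen after seeing the data, against -1.66; each uses a shorter length for CBX7. The cause of the other changes was not tested.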
